A study of Homo sapiens with 6 samples.

Results

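The genes described here are 43 components of epithelial cell junctions and of the machinery that sets up cell polarity, measured by RNA-seq in PANC-1 cells. They were listed by symbol, and all 43 were found by their Ensembl identifiers among the 30735 genes of the files. By role, 11 belong to tight junctions, 7 to adherens junctions, 10 to desmosomes and their linker proteins, 2 to gap junctions and 13 to polarity complexes or the apical surface. PANC-1 is an established human pancreatic ductal adenocarcinoma line. In 3 samples the cells had been transfected with CD73 siRNA (CD73 knockdown cells) and in the other 3 with a negative control; all were grown in DMEM with fetal bovine serum and transfected in serum-free medium. The sources used here do not give the time between transfection and RNA extraction. They call the knockdown samples separate experiments, but do not say whether the samples of the 2 groups that carry the same number (1, 2 or 3) were handled together.

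Tight junctions seal the space between neighbouring epithelial cells, adherens junctions couple their actin cytoskeletons, and desmosomes couple their keratin filaments. Gap junctions are channels through which small molecules pass from cell to cell. The Par, Crumbs and Scribble complexes assign the apical and the basolateral membrane, and in ductal epithelium they position the junctions between both domains.

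The values are RPKM, read numbers scaled to exon length and to the library total, so levels of different genes can be set side by side. Library totals lay between 15009113 and 16836207 reads (or read pairs). For a tested member, between 7 reads (CLDN3) and 8328 reads (JUP) stood behind a value. The siRNA target NT5E, which encodes CD73, was at 3.36, 6.85 and 8.22 RPKM in the CD73 siRNA samples and at 13.96, 13.87 and 17.14 RPKM in the controls, numbered 1, 2 and 3 in that order throughout. The groups did not overlap. Of the 6 epithelial marker genes, KRT8, KRT18, KRT19, EPCAM and CDH1 were detected at 1 RPKM or more in at least 1 sample and KRT7 was not. All 3 immune and all 4 endothelial markers found in the files stayed under 1 RPKM in every sample, and the summed epithelial markers ranged from 71.4 to 102.1 RPKM in knockdown cells and from 135.9 to 253.5 RPKM in controls. That difference lay mainly in KRT8 and KRT18, the simple-epithelium keratins. Its part in the results below was not tested. Of the 5 fibroblast markers found, 3 stayed under 1 RPKM everywhere, while COL1A1 and COL3A1 had control means of 15.8 and 8.87 RPKM. These were above the control means of KRT19 (4.72 RPKM), EPCAM (1.21 RPKM) and CDH1 (1.18 RPKM). They were below those of KRT8 (104.5 RPKM) and KRT18 (70.4 RPKM).

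In PANC-1 control cells the junction genes covered a wide range of levels. Of the 43 members, 14 had a control mean of at least 10 RPKM, 21 lay between 1 and 10 RPKM and 8 were under 1 RPKM. Testing needed 1 RPKM or more in 3 or more samples. The 37 members that met this had a median control level of 7.39 RPKM, against 6.86 RPKM for all 12527 tested genes. JUP, GJA1 and CTNNA1 had the highest control means, and DSG3, CRB3 and DSC3 the lowest.

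Of the adherens junction genes, 4 of 7 had a control mean of at least 10 RPKM. JUP encodes plakoglobin, which serves both adherens junctions and desmosomes. It was at 105.1, 72.2 and 76.7 RPKM in controls and at 92.1, 71.8 and 95.4 RPKM in knockdown cells, with overlapping groups. CTNNA1, alpha-catenin, which links the cadherin complex to actin, had 47.9, 46.0 and 45.4 RPKM in controls and 47.7, 45.0 and 51.3 RPKM in knockdown cells. CTNND1, p120-catenin, which keeps cadherins at the membrane, had 31.4, 28.4 and 31.2 RPKM in controls and 35.8, 30.5 and 33.9 RPKM in knockdown cells. The control spread was narrow for both catenins, at 2.89% (CTNNA1) and 5.55% (CTNND1) of the mean. These levels contrasted with those of the adherens junction cadherins CDH3, CDH1 and CDH2. The desmosomal cadherins are given below. CDH3, P-cadherin, had a control mean of only 0.876 ± 0.287 RPKM (SD, n = 3). On the comparison list of other junction genes, CDH1 (E-cadherin) had 1.69, 1.43 and 0.421 RPKM in the controls and 1.43, 1.09 and 0.433 RPKM in knockdown cells, CDH2 (N-cadherin) a control mean of 4.43 ± 0.37 RPKM and CTNNB1 (beta-catenin) one of 54.8 ± 4.0 RPKM (SD, n = 3 each). Among the nectins, the immunoglobulin-type adhesion proteins of this junction, NECTIN1 had a control mean of 7.27 RPKM and NECTIN3 one of 2.18 RPKM.

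Of the 11 tight junction genes, 2 had a control mean of at least 10 RPKM. OCLN (occludin, a membrane-spanning strand protein) had 11.7, 14.2 and 14.6 RPKM in controls and 11.6, 13.8 and 13.5 RPKM in knockdown cells. TJP1, the ZO-1 scaffold, was at 11.7, 11.2 and 12.3 RPKM and at 12.2, 11.2 and 12.3 RPKM. Both genes were close to level between the groups, and in both the samples sharing a number resembled each other. CLDN1, a strand-forming claudin, ranged more widely, with 7.97, 12.5 and 5.26 RPKM in controls and 9.44, 14.8 and 4.65 RPKM in knockdown cells. Here the samples numbered 2 were the highest of each group and those numbered 3 the lowest. The remaining strand and plaque genes CLDN12, CGN (cingulin), F11R (JAM-A), CLDN7 and MARVELD2 (tricellulin) had control means between 3.41 and 5.15 RPKM. Claudins 3 and 4 are receptors of a Clostridium toxin and abundant in many carcinomas. Their control means were low, at 0.851 ± 0.427 and 0.452 ± 0.026 RPKM (SD, n = 3 each), as was that of the ZO-3 scaffold TJP3 at 0.366 ± 0.048 RPKM. Per sample, 7 to 28 reads stood behind CLDN3, 29 to 49 behind CLDN4 and 20 to 34 behind TJP3.

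The desmosomal genes differed widely in level. DSG2 and DSC2, the desmosomal cadherins of simple epithelia, had control means of 15.6 and 4.195 RPKM, while DSC3 and DSG3, the cadherins of stratified epithelia, had 0.254 and 0.00376 RPKM. DSG3 rested on at most 3 reads in any sample. DSP, desmoplakin, which anchors keratin filaments, was at 9.80, 13.1 and 12.9 RPKM in controls and at 13.8, 14.3 and 13.5 RPKM in knockdown cells, and the groups did not overlap. Of the plakophilins, the plaque proteins that cluster the cadherins, PKP4 had 10.97, 12.9 and 9.59 RPKM in controls and 12.4, 13.4 and 9.80 RPKM in knockdown cells. PKP3 had a control mean of 10.3 RPKM, whereas PKP2 was at 0.526 RPKM. The plakins PPL (periplakin) and EVPL (envoplakin), which partner each other at the desmosome and in the cornified envelope, had control means of 8.03 and 6.46 RPKM.

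For the gap junction channels, GJA1 (connexin 43) had 59.8, 78.8 and 50.3 RPKM in controls and 58.3, 75.4 and 43.6 RPKM in knockdown cells. GJB2 (connexin 26) was far lower, at 1.57, 0.982 and 0.549 RPKM and at 2.36, 1.39 and 1.13 RPKM. In every numbered pair GJB2 was higher in the knockdown sample, although the groups overlapped.

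The polarity genes were led by SCRIB, the scaffold of the basolateral Scribble complex, with 27.7, 30.5 and 28.3 RPKM in controls and 31.1, 33.3 and 35.6 RPKM in knockdown cells. PRKCI, the atypical protein kinase C of the Par complex, had 22.7, 23.6 and 24.1 RPKM and 24.5, 23.9 and 22.1 RPKM. SCRIB did not overlap between the groups and PRKCI was centred on the same value in both. The other Scribble members had control means of 9.93 (DLG1), 7.39 (LLGL1) and 3.79 RPKM (LLGL2). In the Crumbs complex, the adaptors PALS1 and PATJ stood at 8.47 and 2.77 RPKM, and their membrane partner CRB3 at 0.175 RPKM, a value resting on 1 to 6 reads per sample. PARD3 had a control mean of 6.86 RPKM, the angiomotins AMOT and AMOTL1, which bind PATJ and the Hippo effector YAP, had 2.36 and 1.81 RPKM, and the apical mucin MUC1 had 1.77 RPKM.

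**Figure D1:**
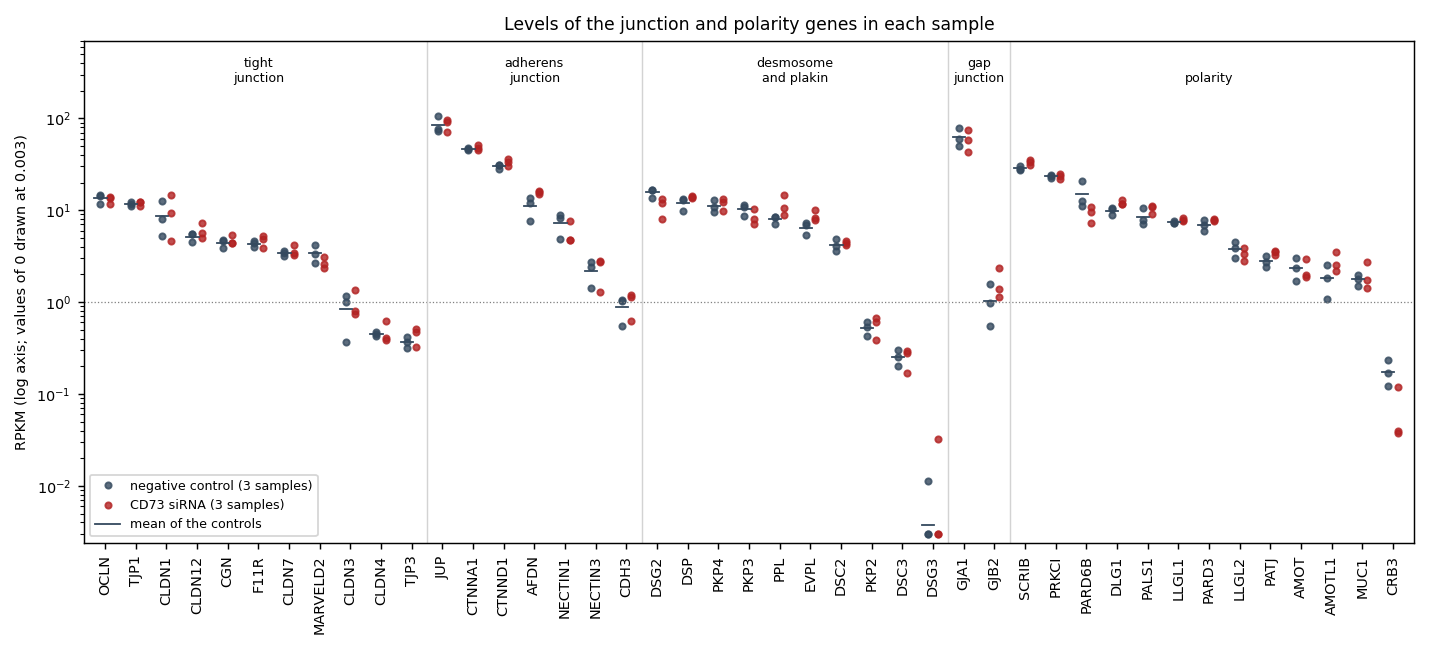
Level of each of the 43 genes in RPKM (log axis) in the 3 negative control and 3 CD73 siRNA samples, grouped by role and ordered by the control mean, which the short lines mark. The controls span from 84.6 RPKM for JUP to 0.00376 RPKM for DSG3, and points of the 2 colours overlap for most genes.

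Promoter sequence was looked at for a motif known from junction genes. The E-box CACCTG, which reads CAGGTG on the other strand, is the site that the SNAIL and ZEB repressors bind in the promoters of E-cadherin and other epithelial genes. It was searched on both strands from 250 bases before to 50 bases after each start site in RefSeq (GRCh38.p14). Of 31 members with an entry, 15 held it (48.4%), against 24.1% of the 27305 genes in that table. A member counted when any of its start sites held the motif, and the 15 had between 1 (for example PATJ) and 5 (DLG1) start-site windows. More windows give more room for a match. The 2 shares were not matched for the number of windows or for expression, and their difference was not tested. The entry was lacking for CDH3, CTNND1, EVPL, F11R, LLGL2, NECTIN1, PARD3, PARD6B, PKP2, PKP3, PPL and SCRIB. The motif was found at 3 of 6 members with a control mean under 1 RPKM and at 12 of 25 members above that level. The following windows show it in capitals, 5′ to 3′ along the gene. They cover both of the 2 positions of DSG2, which is among the members that differ most between the groups. Not shown are the 4 positions of AFDN, the member with the highest log2 fold change. The 2 positions of JUP, the member with the highest control mean, are not shown either. Of the 3 positions of PATJ, 1 is shown. For its membrane partner CRB3, the polarity gene with the lowest level, 2 of 5 positions are shown. The windows of DSG2 lie at chr18:31497933-31497962 and chr18:31498049-31498078, that of PATJ at chr1:61742438-61742467 and those of CRB3 at chr19:6464051-6464080 and chr19:6464199-6464228, all on the plus strand.
DSG2, 232 bases before the start: acgtcacggtccCAGGTGcgagtgcgagcg
DSG2, 116 bases before the start: tcgcggcggccaCACCTGgagccgcgcctt
PATJ, 30 bases before the start: gggagggcctgcCAGGTGaggcgcggtcac
CRB3, 208 bases before the start: aggtccccctcaCACCTGcgcgcttccgcg
CRB3, 60 bases before the start: agtgcgctctccCAGGTGagtgactaaact
The starts meant here are those of RefSeq, which differ from the starts of the GENCODE gene spans. The second window of DSG2 and the windows of PATJ and CRB3 lie inside those spans. For DSG2 the GENCODE span begins at 31498043. A match shows only that these letters stand in the window.

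The first question was whether these genes differed between CD73 knockdown and control cells. In bulk RNA, fewer cells of a kind and less RNA per cell cannot be told apart. Without regard to the sample numbers, no tested member had an unadjusted p below 0.01 (0 of 37 with limma, against 3.13% of all tested genes, 392 of 12527). At an unadjusted p below 0.05 in the same limma fit there were 6, namely EVPL, DSG2, AFDN, PARD6B, PPL and DLG1, where 12.1% of all tested genes did as well. The lowest adjusted p among members from this limma fit was 0.359, and 1 gene of all 12527 (0.00798%) passed an adjusted p below 0.05. The siRNA target NT5E did not pass it either, with an adjusted p of 0.303 in this limma fit. The log2 fold changes of the members, on log2(RPKM + 1), ran from -0.60 (PARD6B) to 0.50 (AFDN), with 28 above 0 and 9 below. Over all 12527 tested genes 6511 were above 0 and 6016 below. Among the 32 tested genes on the comparison list of other junction genes these counts were 18 and 14. The sign of 13 of the 28 members and of 3 of the 9 changed under at least 1 alternative. Nearly all of these changes arose where samples or sample numbers were left out. The exceptions were NECTIN3 and PRKCI, whose sign also changed with quantile normalization. The median log2 fold change of the members was 0.08, against 0.01 for all tested genes. Fold changes on this scale understate those of low genes. The smallest p of an exact two-sided permutation test with 3 samples against 3 is 0.1, which it gave for all 10 members whose groups did not overlap.

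The 3 CD73 siRNA samples lay entirely on one side of the 3 controls in 9 of the 37 tested members (24.3%), 7 of them higher (AFDN, DSP, PPL, EVPL, PATJ, SCRIB, DLG1) and 2 lower (DSG2, PARD6B). Over all tested genes 18.4% were like that, 10.3% higher and 8.07% lower. CRB3, outside the test, was the tenth, with 0.0391, 0.12 and 0.0373 RPKM in knockdown cells against 0.235, 0.121 and 0.167 RPKM in controls. DLG1, a Scribble complex scaffold, had 13.0, 11.6 and 11.7 RPKM in knockdown cells and 8.81, 10.4 and 10.6 RPKM in controls, which is 0.26 higher on the log2 scale (standard error 0.11). PATJ had 3.54, 3.29 and 3.60 RPKM against 2.39, 2.75 and 3.17 RPKM, or 0.25 higher on the log2 scale (standard error 0.12). For SCRIB and DSP the log2 fold changes were 0.20 (standard error 0.10) and 0.21 (standard error 0.13), and that of DSP was 0.09 without the control numbered 1. These 4 genes did not reach a p below 0.01 with or without the sample numbers in the fit.

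Comparing the samples within their number changed the count. When limma was given the number as a block, 6 of the 37 members passed an unadjusted p below 0.01 (16.2%), 4 higher and 2 lower in CD73 knockdown cells, while 7.57% of all tested genes did (948 of 12527), 4.27% higher and 3.3% lower. At an unadjusted p below 0.05 there were 11 members, against 23.3% of all tested genes. No gene of the table (0%) had an adjusted p below 0.05 in limma with the block, and the lowest adjusted p among members from limma was 0.113. NT5E had an adjusted p of 0.113 in that limma fit as well. The 6 were PARD6B, DSG2, EVPL, PPL, AMOTL1 and AFDN. On read numbers recovered from the RPKM steps and weighted by limma's voom, an alternative chosen after the data were seen, the same 6 passed p below 0.01 with the block and all 6 had an adjusted p below 0.05. In that fit 9.16% of all genes passed the adjusted threshold and 13.2% the unadjusted one. Without the block, voom called 0 members, where 3.77% of all genes were called; 8 members had an unadjusted p below 0.05 there, against 12.8% of all genes, and no gene passed the adjusted threshold. Only DSG2 and PARD6B passed p below 0.01 in the blocked limma fit whichever number was left out; the count of members was 2 without the samples numbered 1 (5.41%, against 4.65% of all tested genes), 5 without those numbered 2 (13.5%, against 11.8%) and 2 without those numbered 3 (5.41%, against 3%).

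PARD6B (ENSG00000124171; GRCh38 chromosome 20, 50731544 to 50756795, plus strand) encodes the Par-6 adaptor that brings atypical protein kinase C to its partners. It was at 10.9, 9.53 and 7.33 RPKM in knockdown cells and 21.0, 12.5 and 11.2 RPKM in controls. Every knockdown sample was below every control, and the control numbered 1 was the highest sample. The log2 fold change was -0.60, with a standard error of 0.23 without and 0.12 with the block, and it was -0.34 without the control numbered 1. Within numbers 1, 2 and 3 the log2 differences were -0.89, -0.36 and -0.55 (limma with the block, adjusted p = 0.113; voom with the block, adjusted p = 0.00743).

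DSG2 (ENSG00000046604; chromosome 18, 31498043 to 31549008, plus strand), the desmosomal cadherin with the highest level here, had 8.11, 11.9 and 13.2 RPKM in knockdown cells and 13.6, 16.6 and 16.7 RPKM in controls. The groups did not overlap, and the samples numbered 1 were the lowest of each group. Its log2 fold change was -0.48 (standard error 0.18 without and 0.10 with the block), with log2 differences of -0.68, -0.44 and -0.32 within numbers. Without the CD73 siRNA sample numbered 1 it was -0.29. Limma with the block gave an adjusted p of 0.113, and voom with the block an adjusted p of 0.0113.

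The plakin partners were both higher. EVPL (ENSG00000167880; chromosome 17, 76004502 to 76027452, minus strand) had 7.89, 8.25 and 10.2 RPKM in knockdown cells and 5.34, 6.84 and 7.20 RPKM in controls, and PPL (ENSG00000118898; chromosome 16, 4882507 to 4960741, minus strand) had 14.7, 10.7 and 8.86 RPKM against 8.54, 8.49 and 7.06 RPKM. Neither overlapped between the groups. The 2 genes differed in which number was highest, number 3 for EVPL and number 1 for PPL. For EVPL the log2 fold change was 0.39 (standard error 0.14 without and 0.09 with the block; limma with the block, adjusted p = 0.113). PPL had one of 0.44 (standard error 0.17 and 0.11; limma with the block, adjusted p = 0.119). Without the CD73 siRNA sample numbered 3, PPL also passed without the block, with 0.59 on the log2 scale, whereas it was at 0.26 without the CD73 siRNA sample numbered 1.

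AFDN (ENSG00000130396; chromosome 6, 167826922 to 167972023, plus strand) encodes afadin, which ties nectins to actin. Its values were 14.96, 15.7 and 16.3 RPKM in knockdown cells and 7.59, 13.5 and 12.1 RPKM in controls. The knockdown samples were close together and above all controls, of which number 1 was far the lowest. The log2 fold change was 0.50 (standard error 0.19 without and 0.14 with the block; limma with the block, adjusted p = 0.129), and the log2 differences within numbers were 0.89, 0.20 and 0.40. The log2 fold change was 0.27 when the control numbered 1 was left out and 0.65 when the control numbered 2 was. Without the block, the latter passed an unadjusted p below 0.01, and calls over all genes then rose from 392 to 792.

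AMOTL1 (ENSG00000166025; chromosome 11, 94706431 to 94876753, plus strand), an angiomotin, had 2.18, 2.51 and 3.47 RPKM in knockdown cells and 1.09, 1.82 and 2.52 RPKM in controls. The groups overlapped, but the order of the numbers was the same in both and each knockdown sample was above the control of its number. The log2 fold change was 0.42 (standard error 0.22 without and 0.11 with the block; limma with the block, adjusted p = 0.123), and it was 0.22 without the control numbered 1. Its relative AMOT had overlapping groups and a mean of 2.28 ± 0.61 RPKM in knockdown cells against 2.36 ± 0.68 RPKM in controls (SD, n = 3 each).

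**Figure D2:**
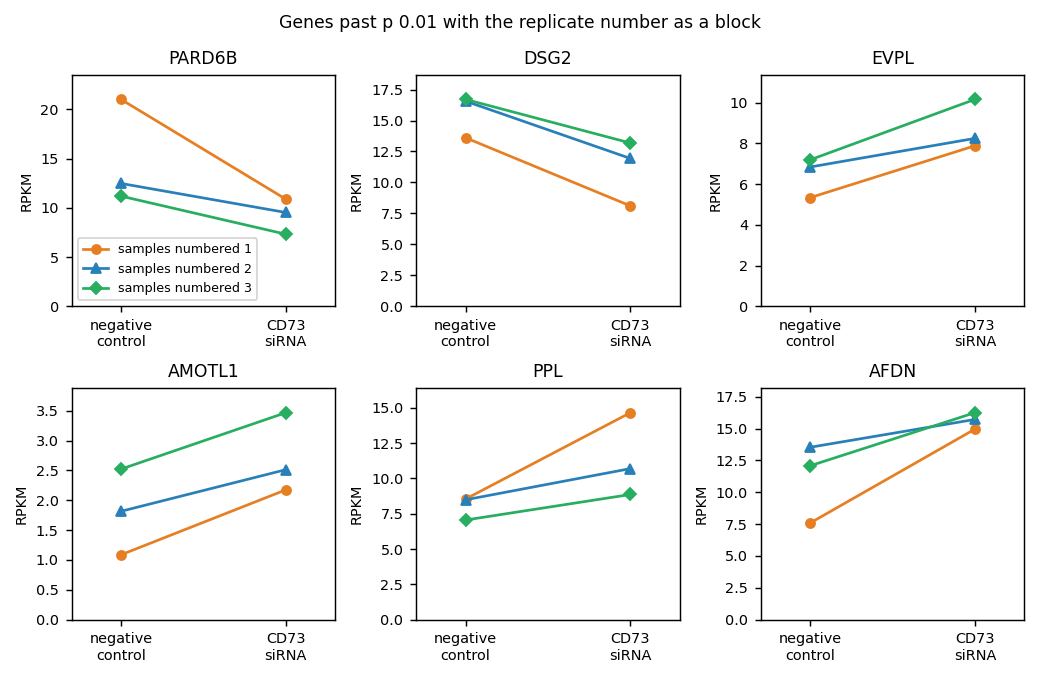
RPKM (axes from 0) of the 6 genes past an unadjusted p of 0.01 in limma with the replicate number as a block, with a line joining the control and the CD73 siRNA sample of each number. All 3 lines run down for PARD6B and DSG2 and up for EVPL, AMOTL1, PPL and AFDN.

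The difference was largest between the samples numbered 1 in all 6 of these genes. This was common in the whole table, where the samples numbered 1 differed most in 58.9% of the 12527 tested genes and in 78.5% of the 948 called with the block. Over the 37 members the median absolute log2 difference was 0.19, 0.12 and 0.14 in numbers 1, 2 and 3, against 0.24, 0.10 and 0.15 over all tested genes. NT5E also fell most in the samples numbered 1, with log2 differences of -1.78, -0.92 and -0.98.

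By role, none of the 9 tested tight junction genes was among them, and their log2 fold changes lay between -0.25 (MARVELD2) and 0.16 (CLDN12), with a median of 0.08. Neither gap junction gene was either. Of 7 tested desmosome and plakin genes there were 3, of 12 polarity genes 2 and of 7 adherens junction genes 1. The background share of 7.57% holds for all of these counts. All 3 numbered pairs differed in one direction in 22 members (59.5%), 15 higher and 7 lower, against 51.4% of all tested genes, 27% higher and 24.5% lower. Among the 6 members with too little expression to be tested (CLDN4, TJP3, DSC3, DSG3, PKP2 and CRB3), no value rested on more than 76 reads.

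**Figure D3:**
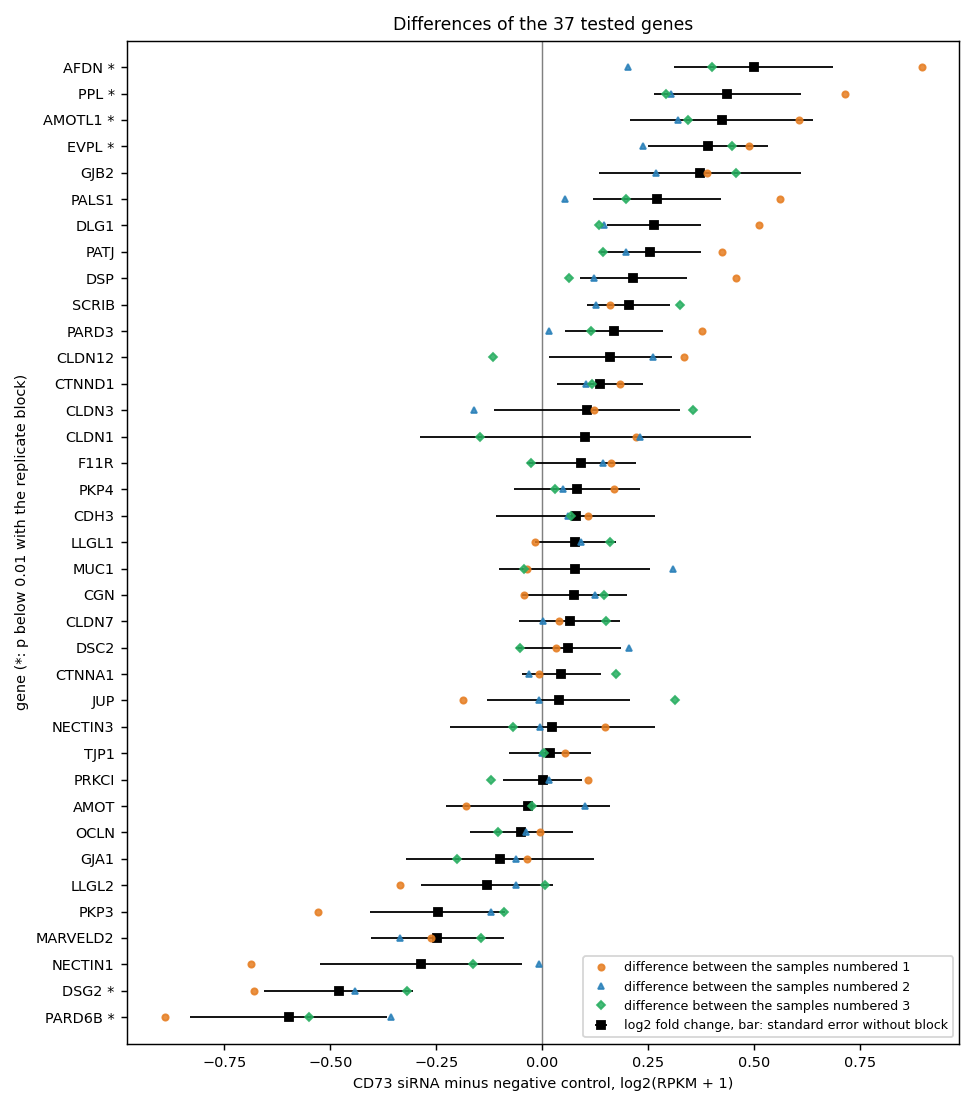
Difference between CD73 siRNA and negative control samples on log2(RPKM + 1) for the 37 tested genes: squares give the log2 fold change with the standard error from limma without the block, and coloured points the difference within each sample number. The squares run from -0.60 for PARD6B to 0.50 for AFDN, and the points of number 1 lie farthest out for all 6 starred genes.

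The spread of each gene was divided between sample number and siRNA. Of the sum of squares of log2(RPKM + 1) over the 6 samples, the number held a median of 61.5% across the tested members and the siRNA 17.6%, against 51.9% and 20.8% over all tested genes. Of the 5 degrees of freedom the number takes 40% and the siRNA 20%. The number held over 50% in 21 of the 37 members (56.8%), where 51.9% of all tested genes were like that. The tight junction members stood at 8 of 9. On the comparison list of other junction genes, 2 of the 8 tested tight junction genes did (25%). In NECTIN3 the share was 97.6%, with 2.78, 2.71 and 1.297 RPKM in knockdown cells and 2.41, 2.73 and 1.41 RPKM in controls. CLDN1 (96.5%), CDH3 (95.8%) and GJA1 (95.6%) followed. NECTIN3, CLDN1, CDH3 and GJA1 were all lowest in the samples numbered 3, in both groups. At the other end, the number held 1.77% in DLG1 and 10.9% in PRKCI, and the siRNA held 68.1% in DLG1, 68.9% in SCRIB and 65.6% in PATJ. The labels do not say what the number stands for.

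**Figure D4:**
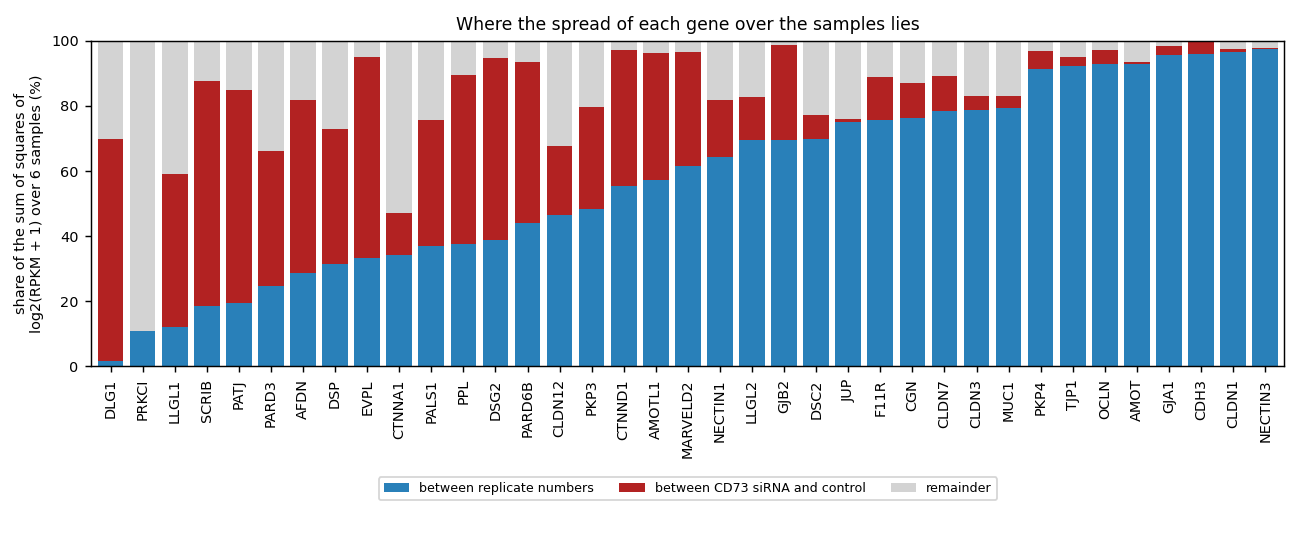
Share (%) of the sum of squares of log2(RPKM + 1) over the 6 samples that lies between sample numbers, between CD73 siRNA and control, and in the remainder, for the 37 tested genes. The share of the number rises from 1.77% in DLG1 to 97.6% in NECTIN3.

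Other genes of the same structures were compared from a list of 67, of which 66 were found and 32 tested. Limma without the block called 1 of the 32, against 3.13% of all tested genes. DLG5, a relative of DLG1 found at cell borders, rose from 5.83, 9.87 and 9.44 RPKM in controls to 12.1, 13.7 and 14.7 RPKM in knockdown cells, and the groups did not overlap. Its log2 fold change was 0.66 (standard error 0.18; limma, adjusted p = 0.305). Its exons share 18.0% of their length with those of another annotated gene, and the call was lost with no filter, with equal totals per sample and without any single CD73 siRNA sample (limma, p between 0.0124 and 0.0259 without a sample). With the block 4 were called (12.5%, against 7.57% of all tested genes), DLG5, DLG4, PERP and VCL. PERP, a desmosomal membrane protein and p53 target, had 413.1, 527.3 and 486.7 RPKM in knockdown cells and 155.2, 435.0 and 294.5 RPKM in controls, with overlapping groups. Its log2 fold change was 0.80 (standard error 0.32 without and 0.19 with the block), and it was 0.40 without the control numbered 1. VCL (vinculin, which strengthens the actin link) had 57.8, 63.4 and 72.1 RPKM against 98.1, 71.7 and 104.0 RPKM, or -0.48 on the log2 scale (standard error 0.16 without and 0.11 with the block). Without the control numbered 2, both PERP (1.14 on the log2 scale) and VCL (-0.65) had an unadjusted p below 0.01 with no block. For CDH2 and CTNNB1 the log2 fold changes were 0.01 (standard error 0.11) and 0.03 (standard error 0.10), and for CDH1 -0.12 (standard error 0.29).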

How the data were processed

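The authors deposited a table per sample with 1 normalized value for each of 30735 genes. The unit of the deposited values, RPKM, is not named in the sources used here and was inferred: scaling by merged exon lengths from GENCODE 29 (GRCh38) left whole reads, to within 0.02, for 95.1% to 95.2% of the genes that had fewer than 1000 reads. The submitters' processing notes list bcl2fastq, Bowtie2 2.2.3, HTSeq 0.6.0 and hg38. Whether junction-spanning reads were aligned, and whether counting used strand, is not given, and 4 of the 43 members share over 10% of their exon length with another gene. Symbols were matched for 30384 identifiers.

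Genes with 1 RPKM or more in 3 or more samples (12527) entered limma 3.58.1 (R 4.3.3; eBayes with a trend) on log2(RPKM + 1), with p-values adjusted over all of them by Benjamini-Hochberg. An unadjusted p below 0.01 made a call; the study names p below 0.01 and does not say whether it was adjusted. Between samples of the same number, deviations from the group means correlated at 0.197, 0.481 and 0.553 across genes, so the numbers were also fitted as a block; a shared culture or day is not stated. The p-values measure the spread between these samples, which may be technical. Values in every sample are given for members called in either fit, members whose groups did not overlap and the 3 highest of each role. The scripts were tested on simulated data. Members and lists were chosen with earlier results of these data known. Alternatives were a pseudocount of 0.1, no filter, equal totals, quantile normalization, the block, samples left out and, added after the data were seen, voom on recovered reads and numbers left out with the block.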

Additional observations from a re-analysis of the deposited data

How the results depend on the processing

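With the replicate block, the pairing by sample number, the count of called genes rose from 392 to 948 over all genes, from 0 to 6 over the members and from 1 to 4 over the other junction genes; with voom and the block these were 1649, 6 and 7. Leaving out single samples gave 116 (without CD73 siRNA replicate 1) to 792 (without negative control replicate 2) genes, with 188 and 258 without negative control replicates 1 and 3, 0 to 1 members and 0 to 4 other junction genes. With the block and a number left out there were 376 to 1481 genes, 2 to 5 members and 1 to 4 other junction genes. The count of other junction genes was also 0 with no filter, 0 with equal totals and 2 with voom. Why the counts moved was not tested. The members' count stayed at 0 under the other alternatives, namely a pseudocount of 0.1, no filter, equal totals, quantile normalization and voom without the block. NT5E stayed past the threshold in all 16 alternatives, with log2 fold changes from -1.44 to -0.90. The sign of 16 members, with log2 fold changes of at most 0.105 in size, changed at least once, 43 times in all. Read numbers limit CLDN3, CRB3 and DSG3 most.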
